A study of Mus musculus with 14 samples.

Results

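Mast cells of MC903-treated mouse ear skin that are labelled as bone marrow mast cells were compared with resident mast cells of skin given the same treatment, across all genes. The comparison used 9 of the 14 libraries of the study, chosen by their labels. The 4 libraries of the first group, numbered 11, 13, 14 and 15, are labelled as bone marrow mast cells of MC903-treated mice. The 5 libraries of the second, numbered 6 to 10, are labelled as resident mast cells of MC903-treated mice. Both groups had the same treatment, and 5 libraries of resident mast cells from non-treated mice (1 to 5) entered the model for the estimate of spread. Each library was made from a pool of up to 100 sorted cells from both ears. The sample labels say bone marrow mast cells where the protocol says integrin β7+ cells, and the origin of the cells was taken from the label and was not measured. Genotype, strain, sex, age, the dose and duration of MC903 and the number of animals are not given in the sources used here, so the p-values measure the spread between these libraries, which may in part be technical.

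MC903 (calcipotriol) acts on the vitamin D receptor and, applied to mouse ears, produces a dermatitis that resembles atopic dermatitis. Mast cells of mouse skin are long-lived tissue cells whose granules hold proteases bound to heparin on a serglycin core, with histamine and serotonin, and they release these when the IgE receptor or a receptor such as Mrgprb2 is engaged. In adult mice, mast cell progenitors of the bone marrow carry integrin β7 and move through the blood into inflamed tissue, where they mature. Connective tissue mast cells are known for the proteases Mcpt4, Cma1, Tpsb2 and Cpa3, and mucosal mast cells for Mcpt1 and Mcpt2.

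Levels are given as CPM, the count of a gene scaled to the library total and by the trimmed mean of M-values (TMM) factors, and single libraries are listed in the order 11, 13, 14 and 15 for bone marrow cells and 6, 7, 8, 9 and 10 for resident cells. Differences are log2 fold changes of bone marrow over resident cells ± SE, with n = 4 and n = 5 libraries. A gene was called when its Benjamini-Hochberg adjusted p from edgeR's quasi-likelihood test was under 0.05, and every called gene was tested again in a fit without library 15. These are pools of cells, in which fewer cells of a type and less RNA per cell cannot be told apart.

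Both groups carried mast cell transcripts at high levels. Cpa3, the mast cell carboxypeptidase, was at 33250, 41960, 40190 and 23270 CPM in bone marrow libraries and 27120, 21770, 21570, 33940 and 36380 CPM in resident libraries. Kit, the stem cell factor receptor, was at 755 to 1393 and 819 to 1823 CPM. Neither was called (log2 fold change 0.29 ± 0.20, adjusted p = 0.456, and -0.11 ± 0.26, adjusted p = 0.865). Itgb7, the integrin chain of the sort, was at 415, 459, 659 and 393 CPM in bone marrow libraries against 231, 137, 148, 217 and 277 CPM in resident ones, with no overlap (log2 fold change 1.25 ± 0.21, adjusted p = 0.00237). That difference checks the labels and is not a finding.

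Library 15 stood apart from the other bone marrow libraries. The 14 macrophage and dendritic cell markers summed to 13120 CPM there, against 80.9 to 354 CPM in bone marrow libraries 11, 13 and 14 and 62.1 to 175 CPM in the resident libraries. Lyz2, a lysozyme of macrophages and neutrophils, was at 5.95, 0, 257 and 4789 CPM. Csf1r, the receptor for macrophage colony-stimulating factor, was at 0, 0, 10.3 and 1094 CPM. C1qc, a complement subunit of tissue macrophages, was at 1739 CPM in library 15 and at 0 in libraries 11, 13 and 14. Neutrophil markers summed to 85.3 CPM in library 15, 74.1 CPM of it from Csf3r, with S100a9, Retnlg, Camp and Ngp at 0 in all 4 bone marrow libraries. Total counts ran from 19978811 to 31781926 in bone marrow and from 13068078 to 25287381 in resident libraries. Genes with 1 count or more numbered 16285, 16025, 19817 and 32814 against 28790, 34560, 35246, 23941 and 22632. Libraries 11, 13 and 14 thus held fewer detected genes than any resident library, and library 15 held more than 3 of the 5. Among 6 library values, the number of genes tested that reached 1 CPM gave the lowest p, 0.0476 in a two-sided exact permutation test (0.226 after adjustment over the 6). The smallest p that 4 against 5 libraries allow is 0.00794. The share of mitochondrial counts (2.14% to 4.24% against 2.39% to 3.96%) gave 0.683.

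**Figure D1:**
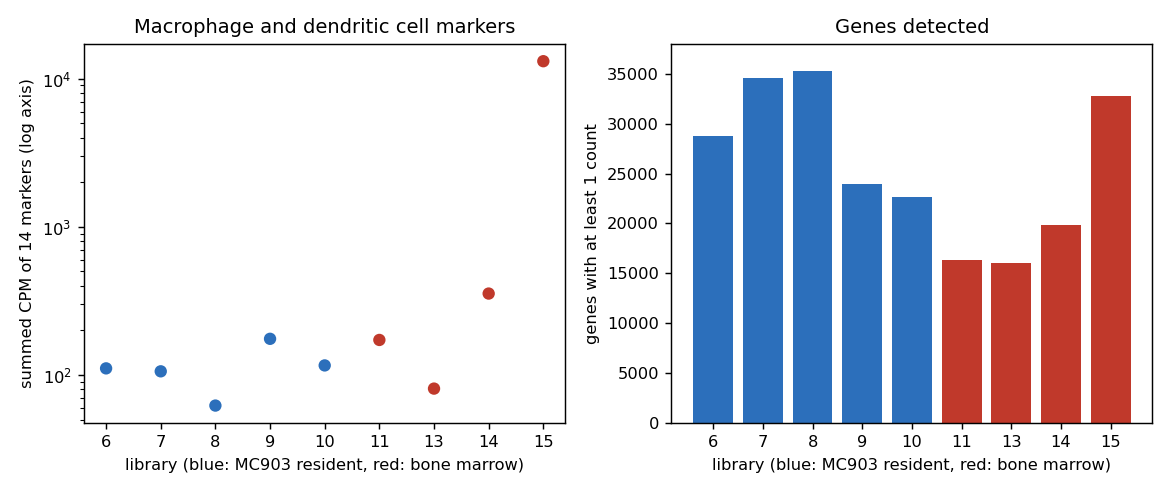
The left plot gives the summed CPM of 14 macrophage and dendritic cell markers in each library on a log axis, and the right plot how many genes had 1 count or more. Resident libraries are blue and bone marrow libraries red. Library 15 lies at 13120 CPM of these markers and the other 8 libraries between 62.1 and 354 CPM. Libraries 11, 13 and 14 have the fewest genes detected.

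Of 21014 genes tested, 477 were called (2.27%), 277 of them higher (1.32%) and 200 lower (0.952%) in bone marrow than in resident mast cells. Groups without overlap in CPM were seen for 422 called genes, against 8.29% of the genes tested. The balance of the calls depended on the scaling and on the libraries fitted. It was 167 higher to 242 lower with DESeq2 size factors, and 178 to 254 when TMM factors were taken from genes at 10 CPM or more. Over all genes tested, the median log2 fold change stood at -0.28 with TMM and at -0.43 with either of those scalings, and over genes at 10 CPM or more it stood at 0.18. More genes were called lower than higher without library 6 (135 higher to 170 lower), 7 (138 to 164) or 8 (162 to 167). The same held without library 9 (149 to 165), 13 (150 to 172) or 15 (328 to 376). More were called higher without library 10 (237 to 164), 11 (189 to 165) or 14 (207 to 196). Large changes were mostly decreases, with 34 genes higher and 96 lower among those called with an absolute log2 fold change of at least 3. In 21 of the genes called lower, all 4 bone marrow libraries held 3 counts or fewer, and no gene called higher was at that level in all resident libraries. Of the 8196 genes whose mean over the 14 libraries reached 10 CPM, 3.33% were called higher and 1.89% lower.

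Without library 15, 24370 genes passed the filter and 704 were called (2.89%), 328 higher (1.35%) and 376 lower (1.54%). Of the 477 genes called with it, 409 were called again in the same direction (1.95% of those tested), 235 of them higher (1.12%) and 174 lower (0.828%). The 68 that were not included Fcer1a, C3ar1, Il4ra, Ifngr1, Egr1 and Ier2, and 295 genes were called only without it. In 13 of the genes called higher, library 15 held at least 3 times the CPM of each other bone marrow library. These 13 were chosen after their values were seen: Cd83, Ccl9, Ccr1 and Cd68 stayed called without library 15, and Cd163, C3ar1, Ncf4, Scpep1, Ap2a2, Timp2, Pde4b, Slc9a9 and Adam9 were not (adjusted p from 0.0766 to 0.19). Cd68, a lysosomal protein abundant in macrophages, was the 1 marker called among the 11 macrophage and dendritic cell markers tested, at 162, 74.2, 69.5 and 817 CPM against 12.9 to 52.8 CPM (log2 fold change 3.24, adjusted p = 0.0392; 1.78, 0.0159 without library 15). It was lost without library 6, 7, 8, 9 or 11 (adjusted p from 0.0752 to 0.0978) and in 4 of the 8 other alternatives (0.0503 to 0.149). Leaving out a resident library also moved the count, which fell to 305 without library 6, 302 without library 7 and 314 without library 9.

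**Figure D2:**
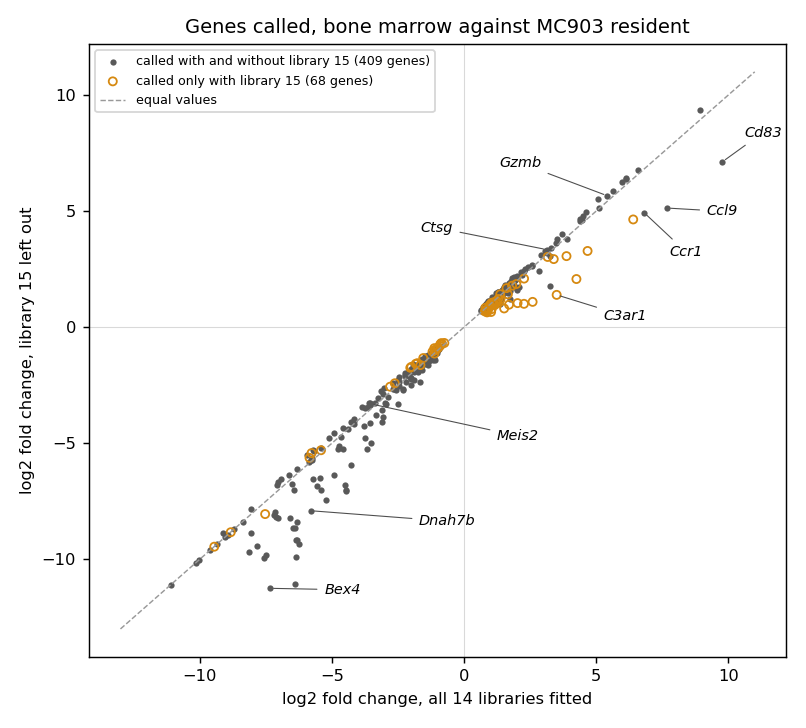
Each point is 1 of the 477 genes called, placed by its log2 fold change with all 14 libraries fitted (horizontal) and with library 15 left out (vertical). Filled points are the 409 genes called in both fits and open orange points the 68 called only with library 15. Most genes lie close to the line of equal values, Cd83, Ccl9, Ccr1 and C3ar1 lie below it on the side of increases, and Bex4 and Dnah7b fall further from it when library 15 is left out.

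The 12 largest increases named were Cd83, Ccl9, Ccr1, Btg2, Plac8, Slc14a1, Scin, Bmp7, Gzmb, Tspan13, Rtn4r and Rad51b. They and the 12 largest decreases were chosen among genes whose groups did not overlap and that were also called without library 15. The separation of the groups and the call without library 15 are thus conditions of the choice and not results. Gzmb, the serine protease granzyme B known from cytotoxic lymphocytes, was at 9831, 9279, 15320 and 4455 CPM in bone marrow libraries and 592, 170.5, 69.8, 91.6 and 208 CPM in resident libraries (ENSMUSG00000015437.5, minus strand of chromosome 14 from 56258838 to 56262260 of GRCm38). The lowest bone marrow library, 15, lay above the highest resident library, 6. Its log2 fold change was 5.42 ± 0.79 (adjusted p = 0.00365; 5.66 without library 15, 0.00434), and it was called under all 17 alternatives run. Bmp7, a bone morphogenetic protein (ENSMUSG00000008999.7, minus strand of chromosome 2 from 172868012 to 172940321), was at 80.7, 24.4, 28.5 and 19.4 CPM against 0.622, 0.401, 2.68, 0.0971 and 0.0842 CPM. It rose by 5.62 ± 1.04 on the log2 scale (adjusted p = 0.00415), and library 11 was the highest of its group. Rad51b, a gene of homologous recombination, was at 49.5, 44.9, 40.1 and 11.8 CPM against 0.253 to 2.75 CPM (log2 fold change 4.5 ± 0.91, adjusted p = 0.00822). Gzmb, Bmp7 and Rad51b were the 3 of the 12 largest increases whose calls held under all alternatives.

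Cd83, a surface protein of mature dendritic cells and activated lymphocytes (ENSMUSG00000015396.4, plus strand of chromosome 13 from 43784775 to 43803132), was at 18.7, 19.3, 29 and 509 CPM in the bone marrow libraries, as against 0, 0, 0.255, 0 and 0.505 CPM in resident libraries. Its bone marrow level was highest in library 15, and without that library the log2 fold change was 7.12 in place of 9.78 (adjusted p = 0.0112 and 0.0168; 0.108 without libraries 7, 8 and 15 together). Ccl9, a chemokine, and Ccr1, a chemokine receptor, were likewise highest in library 15, at 35.3, 15.6, 38.6 and 619.8 CPM and 22.2, 5.42, 45.9 and 287 CPM against 0 to 2.27 and 0 to 2.8 CPM in resident libraries. Without library 15 both stayed called (log2 fold change 5.13, adjusted p = 0.037, and 4.93, 0.0114). In the 3 libraries left both were highest in library 14, where Lyz2 was at 257 CPM and Csf1r at 10.3 CPM. The macrophage and dendritic cell markers summed to 80.9 to 354 CPM in those 3 libraries and 62.1 to 175 CPM in resident ones, and their part in the Ccl9 and Ccr1 differences was not tested. The Ccl9 call was lost without library 6, 7, 8, 9, 10, 11, 13 or 14 (adjusted p from 0.0603 to 0.105) and in 4 of the 7 other alternatives that gave a value (0.0503 to 0.184). The Ccr1 call was lost without library 6, 7, 9, 10, 11 or 14 (adjusted p from 0.0538 to 0.0749), with no filter on low counts (0.067) and with only the 9 libraries fitted (0.0925).

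Btg2, an antiproliferative gene of the immediate early response, was at 125, 418, 419 and 178 CPM against 2.49, 5.21, 1.21, 5.92 and 0 CPM (log2 fold change 6.58 ± 1.31, adjusted p = 0.0246), and library 15 was not the highest. Scin, which encodes the actin-severing protein scinderin of secretory cells, was at 492, 681, 644 and 219 CPM against 9.95, 0.801, 2.8, 0.0971 and 26 CPM (log2 fold change 5.99 ± 1.22, adjusted p = 0.0284). Plac8, expressed in myeloid progenitors, was at 48.7, 52.6, 30.2 and 12.3 CPM against 0 to 1.72 CPM. Slc14a1, a urea transporter, was at 44.6, 41, 10.6 and 10.6 against 0 to 1.09 CPM, and Tspan13, a tetraspanin, was at 30.1, 39.3, 35.4 and 33.9 against 0 to 2.17 CPM. Rtn4r, the Nogo receptor, reached 54.3, 44.5, 32.2 and 6.88 CPM against 0 to 3.31 CPM. Fits that left out a library or changed a setting ended these calls with the fold change still large. In the fits that lost the call the log2 fold change was 6.31 to 6.84 for Btg2, 5.77 to 6.03 for Scin and 5.82 to 6.0 for Plac8 (6.12 with all libraries). It was 5.92 for Slc14a1 (6.12 with all), 4.70 to 6.45 for Tspan13 (5.11) and 4.22 to 5.21 for Rtn4r (4.62). Btg2 was lost without library 6, 8, 9, 13 or 14 (adjusted p from 0.0525 to 0.0731), with no filter on low counts (0.0631) and without libraries 7, 8 and 15 together (0.051). Scin was lost without library 6, 8, 11, 13 or 14 (adjusted p from 0.06 to 0.0731), with no filter on low counts (0.0525) and with only the 9 libraries fitted (0.0796), and Plac8 without library 6, 7 or 10 (adjusted p = 0.0849, 0.0703 and 0.058). Slc14a1 was lost without library 8 (adjusted p = 0.0502), and Tspan13 without library 6 or 9 (adjusted p = 0.061 and 0.0531) and without libraries 7, 8 and 15 together (0.0502). Rtn4r was lost without library 6, 7, 8, 9, 10, 11, 13 or 14 (adjusted p from 0.0641 to 0.116) and in 3 of the 8 other alternatives (0.0585 to 0.072).

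**Figure D3:**
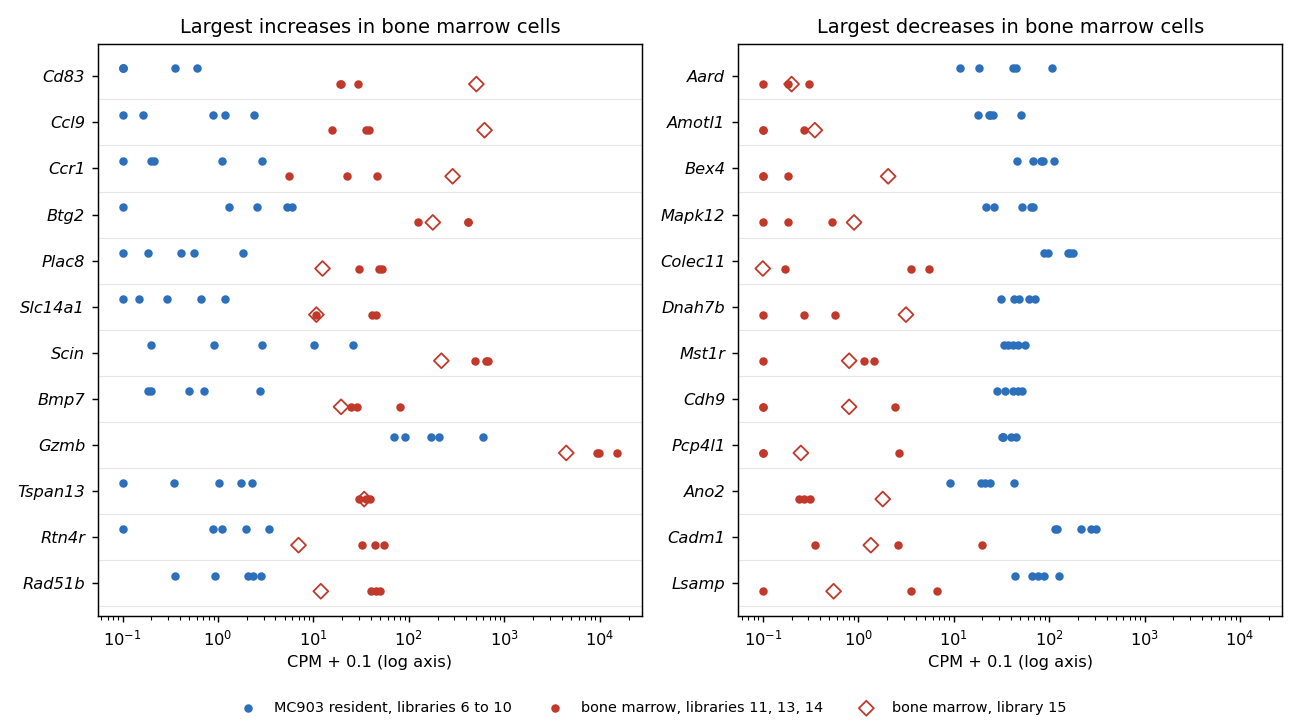
CPM (plus 0.1, log axis) of the 12 genes with the largest increase (left) and the 12 with the largest decrease (right) among called genes that met the naming conditions. Each point is 1 library, blue for resident libraries 6 to 10, red for bone marrow libraries 11, 13 and 14, and an open diamond for library 15. The 24 genes were chosen among those whose groups do not overlap, and among the increases the diamond lies far to the right of the other red points for Cd83, Ccl9 and Ccr1.

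In 9 of the 12 largest decreases no bone marrow library exceeded 3.06 CPM, and the highest bone marrow levels of the other 3, Colec11, Lsamp and Cadm1, were 5.46, 6.57 and 19.9 CPM. Aard, a gene of little known function (ENSMUSG00000068522.4, plus strand of chromosome 15 from 52040107 to 52045722), was at 0.0838, 0.209, 0 and 0.1 CPM against 18.2, 42.1, 11.5, 44.8 and 106 CPM. Amotl1, an angiomotin of cell junctions, was at 0, 0, 0.171 and 0.251 against 23.6, 17.9, 24, 25.6 and 50.04 CPM. Their log2 fold changes were -8.70 ± 0.85 (adjusted p = 8.55e-06) and -8.06 ± 1.0 (adjusted p = 7.31e-05). Without library 15 they were -8.68 and -8.88. Mapk12, the p38γ kinase (ENSMUSG00000022610.10, minus strand of chromosome 15 from 89130584 to 89140703), fell from 21.7, 52.1, 26.1, 63.8 and 67.9 CPM in resident to 0.0838, 0, 0.427 and 0.803 CPM in bone marrow libraries (log2 fold change -7.19 ± 0.73, adjusted p = 1.43e-05). Its log2 fold change was -8.10 without library 15. Bex4 was at 45.9 to 111 CPM in resident libraries, at 1.96 CPM in library 15, and no higher than 0.0838 CPM in libraries 11, 13 and 14. Dnah7b, an axonemal dynein chain, was at 31.4 to 70.4 against 0.168, 0, 0.469 and 3.06 CPM. It was also low in the non-treated resident libraries, at 0.402 to 4.75 CPM, so the MC903 resident libraries stood above both. Ano2, a calcium-activated chloride channel, was at 21.3, 24, 19.1, 42.8 and 9.01 against 0.168, 0.139, 0.213 and 1.71 CPM. Library 15, with the most genes detected of the 4, was the highest bone marrow library in 5 of the 12 decreases (Amotl1, Bex4, Mapk12, Dnah7b and Ano2), library 14 in 4, library 13 in 2 and library 11 in 1.

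Mst1r, the receptor for macrophage-stimulating protein (ENSMUSG00000032584.12, plus strand of chromosome 9 from 107906873 to 107920383), was at 0, 1.04, 1.36 and 0.703 CPM in the bone marrow libraries, as against 47.4, 41.6, 33.5, 37.3 and 55.9 CPM in resident libraries (log2 fold change -5.78 ± 0.65, adjusted p = 2.69e-05). Cdh9, a cadherin, was at 0, 0, 2.35 and 0.703 against 28.3 to 52.3 CPM. Colec11, a secreted collectin that binds sugars of microbes (ENSMUSG00000036655.8, minus strand of chromosome 12 from 28594173 to 28623377), was at 3.43, 0.0695, 5.46 and 0 against 179.7, 87.3, 97.4, 156 and 164 CPM. Cadm1, an adhesion molecule of the immunoglobulin family through which mast cells bind fibroblasts and nerves, was at 19.9, 2.5, 0.256 and 1.25 against 216, 122, 114, 277 and 309 CPM (log2 fold change -5.12 ± 1.02, adjusted p = 0.0246). Lsamp, another immunoglobulin-family adhesion molecule, was at 0, 3.51, 6.57 and 0.452 against 43.6 to 126 CPM. Pcp4l1 was at 0, 2.57, 0 and 0.151 against 32.1 to 45 CPM. The Colec11 call was lost without library 11 (adjusted p = 0.0561) and with only the 9 libraries fitted (0.0632), and the calls of Cadm1 and Lsamp without library 13 (adjusted p = 0.0927 and 0.083). Cadm1 and Lsamp were also lost with only the 9 libraries fitted (adjusted p = 0.0819 and 0.0544), and Lsamp and Pcp4l1 with no filter on low counts (adjusted p = 0.0671 and 0.0653). Of the 12 decreases, 8 (Aard, Amotl1, Bex4, Mapk12, Dnah7b, Mst1r, Cdh9 and Ano2) were called under every alternative. Fewer genes were detected in libraries 11, 13 and 14 than in any resident library, and the part of that difference in the decreases was not tested.

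The promoters of these 24 genes were searched for short forms of sites bound by factors with roles in mast cell activation and identity, using RefSeq's table of GRCm38.p6 and the 250 bases before each start site, which held 9 of the 12 genes with the largest increase and 10 of the 12 with the largest decrease. The NF-kappa B form (GGG, any 2 bases, TTTCC), on either strand, was found in Ccl9 alone (1 of 9, 0 of 10, and 1.41% of 32851 windows of the same length). The AP-1 form TGANTCA was found in Ccl9 and Gzmb (2 of 9, 0 of 10, and 6.75% of windows), and the GATA form AGATAA in Colec11 and Ano2 (0 of 9, 2 of 10, and 9.99% of windows). A match is a string of letters and not a bound site. The windows of Gzmb (chr14:56262335-56262584), Ccl9 (chr11:83578637-83578886) and Colec11 (chr12:28623331-28623580), all on the minus strand, are shown because each holds a match in a gene with a large change. The bases in capitals are the matches, and the last base is the one before the start site.
Gzmb: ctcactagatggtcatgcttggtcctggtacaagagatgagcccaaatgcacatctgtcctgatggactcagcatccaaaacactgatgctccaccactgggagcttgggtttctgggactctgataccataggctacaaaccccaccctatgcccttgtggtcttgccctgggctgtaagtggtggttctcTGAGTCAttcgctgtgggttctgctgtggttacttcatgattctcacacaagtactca
Ccl9: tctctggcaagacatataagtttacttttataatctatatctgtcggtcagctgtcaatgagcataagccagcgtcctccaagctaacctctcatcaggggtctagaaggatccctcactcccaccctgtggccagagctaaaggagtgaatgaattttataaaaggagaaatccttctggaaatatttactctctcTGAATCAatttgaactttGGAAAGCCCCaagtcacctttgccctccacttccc
Colec11: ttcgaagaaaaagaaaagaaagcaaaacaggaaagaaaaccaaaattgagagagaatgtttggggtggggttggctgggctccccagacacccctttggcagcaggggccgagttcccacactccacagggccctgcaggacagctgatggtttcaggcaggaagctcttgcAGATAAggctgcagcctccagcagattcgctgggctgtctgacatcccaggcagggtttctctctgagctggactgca
The Gzmb match to the AP-1 form begins 58 bases before the start site. In Ccl9 the AP-1 form begins 53 bases and the NF-kappa B form, read on the opposite strand, 35 bases before it, and no letters are shared. The Colec11 match to the GATA form begins 78 bases before the start site. The RefSeq start of Gzmb lies beyond the end of the gene in the count table's annotation (56262260).

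Granule proteases encoded in a cluster of chromosome 14 moved in different directions. The cluster holds 15 protease genes over 320.8 kb, from Cma1 (start 55941451) to Gzmb (end 56262260), of which 3 were called higher (Mcpt1, Ctsg and Gzmb), 1 lower (Mcpt4) and 6 stayed under 4 CPM in all 9 libraries (Gzme, Gzmd, Gzmg, Gzmn, Gzmf and Gzmc). Over all genes tested 1.32% were called higher and 0.952% lower. Ctsg, cathepsin G of neutrophil and immature mast cell granules (56099881 to 56102574), was at 2192, 2793, 2728 and 1245 CPM in the bone marrow libraries, as against 239, 239, 176, 249.7 and 367 CPM in resident libraries. Every bone marrow library exceeded every resident library, and the log2 fold change was 3.13 ± 0.26 (adjusted p = 1.24e-06; 3.34 without library 15, 2.5e-09). Mcpt4, the chymase of connective tissue mast cells (56059629 to 56062313), was at 7081, 9611, 8448 and 9843 CPM against 24750, 17720, 22930, 26060 and 26620 CPM. It fell by 1.44 ± 0.15 on the log2 scale (adjusted p = 1.43e-05), with the highest bone marrow library below the lowest resident one. Cma1, a second chymase of these cells at the edge of the cluster (55941451 to 55944675), was at 53030, 59740, 57060 and 40400 against 44810, 35020, 40030, 52440 and 45140 CPM and was not called (0.27 ± 0.17, adjusted p = 0.441), except in limma (0.049).

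Of 5 mucosal mast cell genes tested, Mcpt1 and the sort marker Itgb7 were called higher, and the mucosal proteases varied between the bone marrow libraries. Mcpt1, a chymase of mucosal mast cells (56017971 to 56020384), was at 1276, 1767, 1.07 and 6.53 CPM against 1.66, 0.801, 1.59, 1.75 and 1.89 CPM, so that libraries 11 and 13 stood far above every other library and library 14 lay within the resident range. Its log2 fold change of 8.93 ± 1.76 (adjusted p = 0.0246) therefore describes those 2 libraries, and the call was lost without library 6, 7, 8, 9, 10, 11 or 13 (adjusted p from 0.0534 to 0.0724), in limma (0.35) and with only the 9 libraries fitted (0.1). Mcpt2, another protease of the cluster, was at 1945, 1481, 150 and 88.4 against 36.3, 20.9, 7.77, 22.7 and 247 CPM, highest in the same 2 libraries. It was not called (log2 fold change 3.77 ± 1.12, adjusted p = 0.12). It was called by DESeq2's test (0.00632), in limma (0.0486) and without library 10 (log2 fold change 5.37, 0.0218). Mcpt8, a protease of basophils and immature mast cells, was at 979, 206, 83.5 and 46.2 against 6.22, 18.7, 3.12, 10.8 and 57.1 CPM (log2 fold change 4.09 ± 1.05, adjusted p = 0.077), and was called with the filter at 10 CPM (0.0395), by DESeq2's test (0.000547), in limma (0.0371), without library 10 (0.0379) and without library 15 (0.0471). Library 11 had the highest Mcpt8 and Mcpt2, while the basophil protease Prss34 was at 4.77, 15.9, 0.384 and 0 CPM in the bone marrow libraries, as against 0.104 to 41.7 CPM in resident libraries. Reads shared by near copies among these genes could have been assigned to either, so the values of Mcpt1, Mcpt2, Mcpt4 and Mcpt9 are uncertain to that extent.

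**Figure D4:**
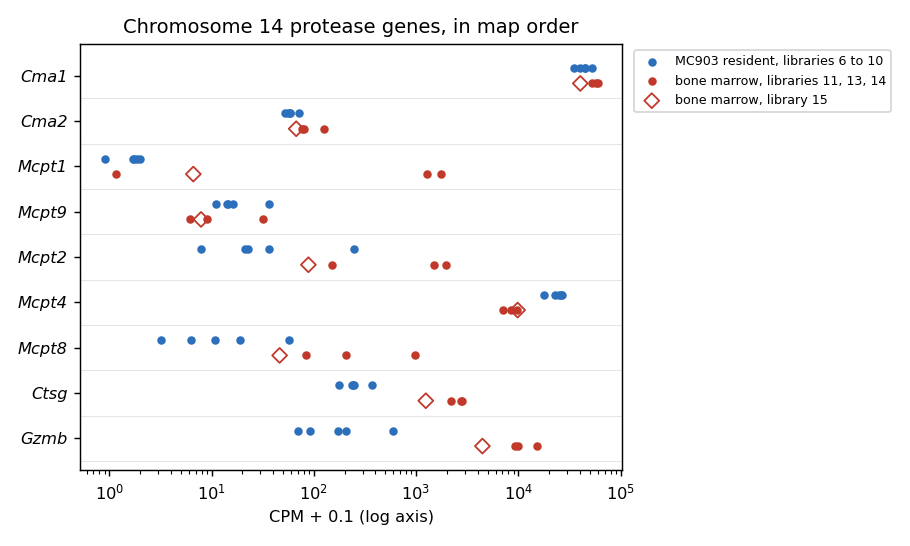
CPM (plus 0.1, log axis) of the 9 chromosome 14 protease genes that reached 4 CPM in any of the 9 libraries, in map order from top to bottom. Blue points are resident libraries, red points bone marrow libraries 11, 13 and 14, and the open diamond library 15. Ctsg and Gzmb separate to the right and Mcpt4 to the left in bone marrow cells, Cma1 overlaps, and Mcpt1 splits the bone marrow libraries into 2 above 1000 CPM and 2 below 10 CPM.

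Lists of genes for mast cell type, signalling, mediators and metabolism, 24 in all, were then described by role. Together they hold 423 genes, of which 399 were tested, 39 called higher (9.77%) and 17 lower (4.26%), against 1.32% and 0.952% of all genes tested. Among the 308 of them whose mean reached 10 CPM the shares were 12.7% and 5.52%, against 3.33% and 1.89%. The lists were chosen with earlier results of these data known, so these shares are a description.

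**Figure D5:**
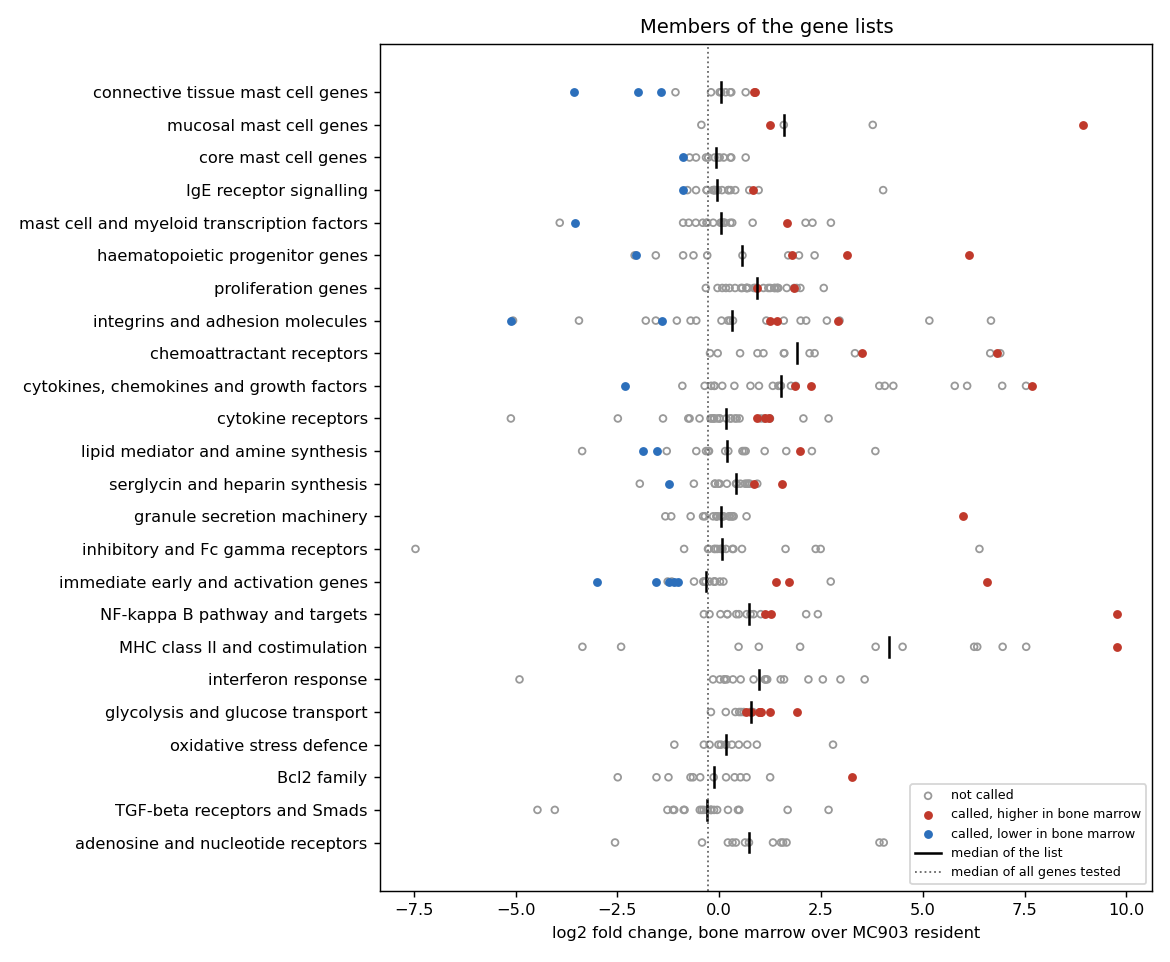
Log2 fold change of bone marrow over resident cells for every tested member of the 24 gene lists. Red and blue points are members called higher and lower, open grey points are not called, black bars are list medians and the dotted line (-0.28) is the median over all tested genes. Called members are few in most lists, the glycolysis list holds 8 called higher and none lower, and the MHC class II list has a median of 4.17 with a single called member.

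Connective tissue mast cell genes split. Of 13 members tested, 2 were called higher (Tpsab1 and Srgn) and 3 lower (Mcpt4, Mrgprb1 and Mrgprx1), with Hdc added to those higher without library 15, and the list median was 0.05 (0.28 without library 15). The median was -0.28 over all genes tested (-0.84 without library 15) and 0.18 over those at 10 CPM or more (0.20). Mrgprb1, a Mas-related receptor of mast cells (ENSMUSG00000070547.4, minus strand of chromosome 7 from 48444113 to 48456342), was at 352, 277, 391 and 519.9 CPM in the bone marrow libraries, as against 1568, 1194, 1170, 1849 and 1928 CPM in resident libraries. It fell by 2.0 ± 0.21 on the log2 scale (adjusted p = 1.43e-05). Mrgprx1 was at 1.72, 5.95, 19.3 and 2.11 against 68.3, 50.4, 95.8, 101 and 117 CPM (log2 fold change -3.58 ± 0.59, adjusted p = 0.00325). Mrgprb2, the receptor through which basic peptides and drugs degranulate mouse mast cells, was at 379, 492, 568 and 318 against 385, 292, 287, 518 and 484 CPM and was not called (0.15 ± 0.24, adjusted p = 0.794). The 2 receptors that fell and Mrgprb2 belong to a family of similar sequences, so shared reads are possible.

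Tpsab1, a tryptase, was at 6226, 6024, 5866 and 5329 against 3415, 3320, 2623, 2903 and 3599 CPM (log2 fold change 0.88 ± 0.14, adjusted p = 0.00163). Its near copy Tpsb2 was at 18240 to 25810 against 15770 to 29440 CPM and was not called (-0.20 ± 0.17, adjusted p = 0.567). The split of reads between the tryptases is uncertain for the same reason. Of 12 core mast cell genes, none was called higher and Fcer1a, the IgE-binding α chain of the IgE receptor, was called lower. Without library 15 the counts turned to 1 higher (Hdc, the histamine-forming enzyme, adjusted p = 0.00453) and 0 lower. Over all alternatives 0 to 1 of the list were called higher and 0 to 3 lower. Fcer1a was at 4013, 3182, 3032 and 2037 CPM against 7040, 3787, 4544, 6764 and 6384 CPM, a log2 fold change of -0.90 ± 0.23 (adjusted p = 0.0441), and the groups overlapped. Its call was lost without library 6, 9, 10, 13, 14 or 15 (adjusted p from 0.0503 to 0.0841). The signalling chain Fcer1g was at 1856 to 2142 against 1363 to 2277 CPM and the β chain Ms4a2 at 526 to 858 against 668 to 1514 CPM, neither called (adjusted p = 0.949 and 0.182). Ms4a2 was called lower with TMM factors of genes at 10 CPM or more (0.0447), with the filter at 10 CPM (0.0295) and by DESeq2's test (0.0203). Il1rl1, the IL-33 receptor, was at 887, 667, 752 and 462 against 1188, 812, 789.5, 1532 and 1391 CPM (log2 fold change -0.73 ± 0.23, adjusted p = 0.111). It was called lower with DESeq2 size factors (0.0292), with TMM factors of genes at 10 CPM or more (0.0231), with no filter on low counts (0.00966), with the filter at 10 CPM (0.0143) and by DESeq2's test (0.00493) and in no fit that left out 1 library. Crlf2, a chain of the receptor for the keratinocyte cytokine TSLP, was at 52.8 to 57.2 against 29.2 to 56.4 CPM (adjusted p = 0.627). Of 20 IgE receptor signalling genes, Fcer1a was called lower and Pik3cd, a lipid kinase subunit, higher (136, 144, 274 and 143 against 83.7 to 104 CPM, adjusted p = 0.0485) and was lost without library 6, 7, 8, 9, 10, 11, 13 or 14 (adjusted p from 0.0586 to 0.26) and in 6 of the 8 other alternatives (0.064 to 0.129).

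Among 21 mast cell and myeloid transcription factors tested, 1 was called higher and 1 lower, both under all alternatives. Meis2, a homeobox factor (ENSMUSG00000027210.20, minus strand of chromosome 2 from 115863064 to 116065839), was at 9.34, 12.3, 15.8 and 5.22 CPM in the bone marrow libraries, as against 138, 87.5, 108, 128 and 155 CPM in resident libraries. Its log2 fold change was -3.53 ± 0.30 (adjusted p = 1.24e-06), with a wide gap between the groups. Bhlhe40, a basic helix-loop-helix factor induced in activated lymphocytes and mast cells (ENSMUSG00000030103.11, plus strand of chromosome 6 from 108660629 to 108666925), was at 498, 482, 423 and 344 against 123, 118, 53.7, 217 and 174 CPM (log2 fold change 1.67 ± 0.29, adjusted p = 0.00295). Gata2, required for mast cell identity, was at 2575, 2991, 3036 and 1275 against 1647 to 2259 CPM and was not called (adjusted p = 0.509).

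Of 13 haematopoietic progenitor genes tested, 3 were called higher (Cd34, Ctsg and Plac8) and 1 lower (Ly6a). Cd34, a sialomucin of progenitors that mast cells also carry (ENSMUSG00000016494.9, plus strand of chromosome 1 from 194938819 to 194961279), was at 201, 121, 159 and 68.5 CPM against 32.4, 46.6, 45.6, 50.2 and 24.6 CPM, higher in every bone marrow library (log2 fold change 1.78 ± 0.35, adjusted p = 0.00752). Ly6a, the stem cell antigen Sca-1 (ENSMUSG00000075602.10, minus strand of chromosome 15 from 74994877 to 74998031), was at 298, 194, 319 and 157 against 959, 475, 1101, 1096 and 1330 CPM, lower in every bone marrow library (log2 fold change -2.04 ± 0.29, adjusted p = 0.000437). Mpo, Elane and Prtn3, proteases and peroxidase of granulocyte progenitors, did not pass the filter and had bone marrow means of 0.0335, 0.0869 and 0.0377 CPM. Myb, a factor of progenitors, was at 89.3, 113, 118 and 19.98 against 75.7 to 135 CPM and was not called (adjusted p = 0.713).

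Adhesion molecules changed in both directions. Of 24 tested, 3 were called higher (Itga4, Selplg and the sort marker Itgb7) and 2 lower (Itga2 and Cadm1). Itga4, the integrin α4 chain that pairs with integrin β7 in progenitor homing (ENSMUSG00000027009.18, plus strand of chromosome 2 from 79255426 to 79333123), was at 209.6, 246, 214 and 99.9 CPM in the bone marrow libraries, as against 46.3, 36.4, 10.5, 19.4 and 15.1 CPM in resident libraries. It rose by 2.91 ± 0.39 on the log2 scale (adjusted p = 0.000159), and the lowest bone marrow library was library 15. Selplg, the ligand for P-selectin on leukocytes, was at 531, 645, 427 and 676 against 192, 147, 152, 250.5 and 315 CPM (log2 fold change 1.43 ± 0.26, adjusted p = 0.00416). It was not called without libraries 7, 8 and 15 together (adjusted p = 0.101). Itga2, the collagen-binding α2 chain, was at 36, 36.1, 27.6 and 22.7 against 83.8, 88, 62.6, 80.9 and 90.03 CPM (log2 fold change -1.41 ± 0.28, adjusted p = 0.00673). Chemoattractant receptors gave 2 calls of 14 tested, Ccr1 and C3ar1. C3ar1, the complement C3a receptor, was at 7.87, 41.6, 19.7 and 329 against 4.46 to 15.2 CPM and was lost without library 6, 7, 8, 9, 10, 13 or 15 (adjusted p from 0.0788 to 0.121) and in 6 of the 8 other alternatives (0.0585 to 0.285); its log2 fold change was 3.50 with library 15 and 1.39 without it.

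Among 26 cytokines, chemokines and growth factors tested, 3 were called higher (Lif, Vegfa and Ccl9) and Ccl7 lower. Ccl7, a monocyte chemoattractant (ENSMUSG00000035373.2, plus strand of chromosome 11 from 82045712 to 82047525), was at 2826, 1887, 1464 and 4508 CPM in the bone marrow libraries, as against 11650, 9274, 12550, 14210 and 18810 CPM in resident libraries. It fell by 2.32 ± 0.28 on the log2 scale (adjusted p = 5.87e-05). Its neighbour in function Ccl2 was at 1402, 1634, 1642 and 2425 against 1437 to 2507 CPM and was not called (adjusted p = 0.793). Lif, a cytokine of the interleukin 6 family, was at 653, 772, 151 and 283 against 71.4, 77.4, 47.9, 106 and 183 CPM (log2 fold change 2.25 ± 0.46, adjusted p = 0.0165). Vegfa, the angiogenic factor, was at 81.1, 188, 181 and 151 against 33.1, 20.3, 84.4, 53.6 and 14.5 CPM (1.86 ± 0.40, 0.0134). The groups overlapped in both. Lif was lost without library 11 or 13 (adjusted p = 0.066 and 0.0616) and without libraries 7, 8 and 15 together (0.0558), and Vegfa without library 6 or 7 (adjusted p = 0.0746 and 0.0629) and with only the 9 libraries fitted (0.0794). The cytokines Il4, Il6 and Il13 were at 176 to 305, 442 to 624 and 14.6 to 37.9 CPM in the bone marrow libraries, as against 119.8 to 326, 97.8 to 599.5 and 27.9 to 57.2 CPM in resident libraries, and none was called (adjusted p = 0.89, 0.199 and 0.61). Il6 was called higher in limma (0.0244) and without library 10 (0.00992).

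Of 18 genes of lipid mediator and amine synthesis, 1 was called higher (Alox5ap) and 2 lower (Slc6a4 and Ddc), with Hdc added to those higher without library 15. Slc6a4, the serotonin transporter (ENSMUSG00000020838.12, plus strand of chromosome 11 from 76998603 to 77032340), was at 326, 576, 441 and 298 CPM against 1338, 1019, 1032, 1221 and 1292 CPM and fell by 1.53 ± 0.19 on the log2 scale (adjusted p = 6.92e-05). Ddc, the decarboxylase of serotonin synthesis, was at 32.7, 154, 23.5 and 82.5 against 231, 299.7, 216, 315 and 284 CPM (-1.88 ± 0.40, adjusted p = 0.0148). Tph1, the hydroxylase before it, was at 2016, 1802, 1472 and 1146 against 1547 to 3037 CPM and was not called (adjusted p = 0.158), but was called lower with TMM factors of genes at 10 CPM or more (0.0354), with no filter on low counts (0.0487), with the filter at 10 CPM (0.0258) and by DESeq2's test (0.0141). Hdc, which makes histamine, was at 8013, 9739, 11740 and 5422 against 5377, 6327, 4153, 6143 and 5719 CPM. It was not called (0.65 ± 0.19, adjusted p = 0.0777), but was called higher with no filter on low counts (6.67e-08), in limma (0.0123), without libraries 7, 8 and 15 together (0.0297) and without library 15 (0.00453). Alox5ap, the helper protein of leukotriene synthesis, was at 76.8, 116, 108 and 199 against 29.7, 16.1, 8.6, 24.8 and 78 CPM, highest in library 15 and with library 11 inside the resident range (1.99 ± 0.45, adjusted p = 0.0199), and was lost without library 6, 7 or 9 (adjusted p = 0.0595, 0.0727 and 0.0596), with only the 9 libraries fitted (0.0719) and without libraries 7, 8 and 15 together (0.176). Ddc was not called without libraries 7, 8 and 15 together (adjusted p = 0.0688).

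Of 19 genes of serglycin and heparin synthesis, 2 were called higher and 1 lower; without library 15 Papss2, which makes the sulfate donor, was also higher (adjusted p = 0.0153). Srgn, the serglycin core protein, was at 5673, 5150, 5487 and 3526 CPM against 2690, 1978, 2251, 3372 and 3356 CPM (0.86 ± 0.19, adjusted p = 0.0179), all bone marrow libraries above all resident ones. Hs3st1, a 3-O-sulfotransferase of heparan sulfate (ENSMUSG00000051022.7, minus strand of chromosome 5 from 39613935 to 39755475), was at 568, 896, 806 and 528 against 284, 144, 189, 269.9 and 306 CPM (1.55 ± 0.25, adjusted p = 0.00155). Hs2st1, a 2-O-sulfotransferase (ENSMUSG00000040151.9, minus strand of chromosome 3 from 144429706 to 144570181), was at 56, 93.7, 102 and 88.8 against 208, 136, 160.1, 238 and 254 CPM (-1.23 ± 0.23, adjusted p = 0.00395). The 2 sulfotransferases thus changed in opposite directions, each under all alternatives, while the Srgn call was lost without library 7 or 11 (adjusted p = 0.0619 and 0.0517). Ndst2, the sulfotransferase needed for mast cell heparin, was at 457 to 1322 against 628 to 1146 CPM and was not called (adjusted p = 0.991). Of 20 genes of granule secretion, Scin was called higher and none lower.

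Immediate early genes, which respond quickly to stimulation of a cell, were called in both directions. Of 21 tested, 3 were called higher (Ier3, Btg2 and Myc) and 5 lower (Egr1, Egr3, Ier2, Klf2 and Klf6). The list median was -0.34, near the -0.28 of all genes tested. Klf2, a Krüppel-like factor of quiescent leukocytes (ENSMUSG00000055148.7, plus strand of chromosome 8 from 72319033 to 72321656), was at 175, 48.8, 61.4 and 180 CPM in the bone marrow libraries, as against 537, 464, 784, 1480 and 1392 CPM in resident libraries (-3.0 ± 0.51, adjusted p = 0.00505). Klf6, a related factor, was at 1203, 989.5, 703 and 778 against 1909, 1892, 2317, 3381 and 3957 CPM (-1.56 ± 0.22, adjusted p = 0.00038). Ier3, a stress-induced survival gene (ENSMUSG00000003541.6, plus strand of chromosome 17 from 35821684 to 35822923), was at 1594, 2185, 1699 and 1381 against 429.6, 399, 448, 679 and 660.5 CPM (1.71 ± 0.21, adjusted p = 5.87e-05). Klf2, Klf6, Ier3 and Egr3 were called under all alternatives. Myc, the growth regulator, was at 29.1, 24.6, 21.6 and 28.3 against 5.44, 7.1, 8.09, 12.1 and 16.7 CPM (1.38 ± 0.32, adjusted p = 0.0221) and was lost without library 6, 7, 8 or 11 (adjusted p from 0.0515 to 0.0734) and in 3 of the 8 other alternatives (0.0775 to 0.173). Fos, the best known of these genes, was at 3500, 5778, 4578 and 4423 against 3975, 4390, 4753, 6855 and 8781 CPM and was not called (-0.34 ± 0.26, adjusted p = 0.536). The Egr1 call was lost without library 7, 9, 10, 11, 14 or 15 (adjusted p from 0.0621 to 0.16) and in 4 of the 8 other alternatives (0.0742 to 0.223), and the Ier2 call without library 8, 9, 10, 11, 13 or 15 (adjusted p from 0.0539 to 0.0829), in limma (0.0775) and without libraries 7, 8 and 15 together (0.0853). The value without library 15 was 0.0805 for Egr1 and 0.064 for Ier2, and Atf3, at 163, 102, 108 and 712 against 169.8 to 371 CPM, was called lower only without it (-1.25, 0.00597). Klf4, at 18.1, 15.9, 21.3 and 51.4 against 22 to 94.1 CPM (adjusted p = 0.13), was called lower with no filter on low counts (0.0424), by DESeq2's test (0.0307) and without library 15 (0.0115).

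Of 16 genes of the NF-kappa B pathway, 3 were called higher (Cd83, Tnfaip3 and Nfkbie) and none lower; without library 15 the numbers were 5 and 0, with Nfkbia and Traf1 added. Tnfaip3, the ubiquitin-editing inhibitor A20, was at 1157, 2821, 2614 and 1623 CPM against 658, 678, 934, 969.9 and 1428 CPM (1.13 ± 0.27, adjusted p = 0.026). Nfkbie, the inhibitor IκBε, was at 256, 212, 397 and 127 against 92.2, 64.6, 101, 99.2 and 153 CPM (1.28 ± 0.31, adjusted p = 0.0293). Library 11 overlapped the resident range for Tnfaip3 and library 15 for Nfkbie. Tnfaip3 was lost without library 6, 7, 8, 9, 13 or 14 (adjusted p from 0.0641 to 0.104), with only the 9 libraries fitted (0.0692) and without libraries 7, 8 and 15 together (0.131). Nfkbie was lost without library 6, 7, 8, 9, 11 or 14 (adjusted p from 0.0532 to 0.123), with only the 9 libraries fitted (0.059) and without libraries 7, 8 and 15 together (0.0644). Among cytokine receptors 3 of 27 were called higher, Il4ra, Ifngr1 and Ifnar1, and none lower. Without library 15 the numbers were 2 higher (Ifnar1 and Il7r) and 2 lower (Il6ra and Il6st). Il6ra, the interleukin 6 receptor, was at 0.168, 0, 0.256 and 9.99 against 14.3, 14.2, 7.9, 15.6 and 21 CPM (adjusted p = 0.265; 1.15e-05 without library 15). Il6st, its signalling partner, was at 0.168, 4.1, 1.54 and 31.5 against 40.5, 12, 17.5, 18.5 and 33.1 CPM (0.423; 0.00566). In both, library 15 was within the resident range and the other bone marrow libraries were below it. Il4ra, the receptor chain for interleukins 4 and 13, was at 160.3, 265, 364 and 397 against 104 to 152 CPM (1.21 ± 0.30, adjusted p = 0.0383; 0.0706 without library 15). Ifngr1 was at 88.9, 59.1, 70.3 and 98.4 against 18.2 to 51.2 CPM, and Ifnar1 at 118, 92, 152 and 107 against 57.4 to 67.7 CPM. Ifnar1 was still called without library 15 (adjusted p = 0.0312) and Ifngr1 was not (0.0761). Each of the 3 calls was lost with DESeq2 size factors (adjusted p = 0.0802, 0.0653 and 0.0751) and in at least 6 of the 9 fits that left out 1 library (adjusted p up to 0.123, 0.109 and 0.136).

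MHC class II genes were highest in library 15. The 12 genes of MHC class II and costimulation summed to 5658 CPM in library 15, 132 to 196 CPM in libraries 11, 13 and 14 and 38.1 to 64.5 CPM in resident libraries, beside the 13120 CPM of macrophage markers. Cd74, the invariant chain, was at 7.96, 5.67, 45.5 and 2696 against 2.28, 6.01, 4.01, 9.12 and 6.27 CPM. H2-Ab1 was at 27.3, 13.3, 19.8 and 939 against 1.45, 3.89, 0.637, 8.88 and 1.43 CPM. Neither was called (adjusted p = 0.0754 and 0.0587; 0.122 and 0.0818 without library 15) except with the filter at 10 CPM (0.0406 and 0.0301). Cd83 was the only member called. The list median was 4.17 with library 15 and 2.01 without it, against -0.28 and -0.84 for all genes.

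Of 16 genes of glycolysis and glucose transport, 8 were called higher (Gpi1, Aldoa, Gapdh, Pgk1, Pgam1, Eno1, Pkm and the lactate exporter Slc16a3) and none lower, with a median of 0.77; without library 15 9 were higher, Ldha being added. Pkm, pyruvate kinase (ENSMUSG00000032294.17, plus strand of chromosome 9 from 59656368 to 59679375), was at 778, 1114, 759.7 and 855 CPM in the bone marrow libraries, as against 402, 412, 311, 492 and 518 CPM in resident libraries, with no overlap (1.03 ± 0.19, adjusted p = 0.00355). Gapdh was at 1561, 1860, 1443 and 1398 against 848, 897, 801, 1077 and 921 CPM (0.78 ± 0.16, adjusted p = 0.0084). Eno1, enolase, was at 588, 798, 605 and 829.9 against 307, 374, 279, 412 and 431 CPM (0.96 ± 0.20, adjusted p = 0.00876; 0.108 without libraries 7, 8 and 15 together). Over the 8 called genes the log2 fold change ran from 0.66 (Aldoa) to 1.91 (Slc16a3). Pkm was called under all alternatives, Gapdh was lost without library 13 (adjusted p = 0.0519), and Aldoa without library 6, 7, 8, 9, 11 or 13 (adjusted p from 0.0558 to 0.152) and in 3 of the 8 other alternatives (0.0536 to 0.105). Pgk1 was lost without library 6, 7, 8, 9, 10, 13 or 14 (adjusted p from 0.0577 to 0.172) and in 4 of the 8 other alternatives (0.0763 to 0.104). Pgam1 was lost without library 6, 7, 8, 10, 11, 13 or 14 (adjusted p from 0.0715 to 0.146) and in 5 of the 8 other alternatives (0.0565 to 0.179). Slc16a3 was lost without library 7, 8, 9, 10, 11, 13 or 14 (adjusted p from 0.052 to 0.0787) and without libraries 7, 8 and 15 together (0.182), and Gpi1 without libraries 7, 8 and 15 together (0.0637). The count of calls in the list was 9 without library 15, 5 without library 6, 9, 10, 11 or 14, 4 without library 7 or 8 and 3 without library 13. It was 5 with DESeq2 size factors, 6 with TMM factors of genes at 10 CPM or more, 5 with only the 9 libraries fitted and 2 without libraries 7, 8 and 15 together. With no filter on low counts, with the filter at 10 CPM and by DESeq2's test it was 8, and in limma 10.

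Of 30 proliferation genes, 2 were called higher and none lower, with a median of 0.93; without library 15 3 were higher, Mcm2 being added, with a median of 1.17. With all libraries 28 of 30 had a positive log2 fold change. Positive values made up 40.7% of all genes tested and 62.8% of those at 10 CPM or more. Mcm6, a subunit of the replication helicase, was at 194, 249.5, 286 and 178 CPM against 47.9, 54, 33.4, 64.3 and 116 CPM (1.84 ± 0.34, adjusted p = 0.00416). Its bone marrow libraries all lay above the resident ones, and without libraries 7, 8 and 15 together the adjusted p was 0.0536. Mcm3, another subunit, was at 173, 140.5, 177 and 109 against 70.7, 80.5, 71.5, 63.8 and 106 CPM (0.93 ± 0.23, adjusted p = 0.0323), and was lost without library 6, 7, 8, 9, 11, 13 or 14 (adjusted p from 0.0727 to 0.121) and in 4 of the 8 other alternatives (0.0667 to 0.075). Mcm2, also of the helicase, was at 162, 133, 174 and 87.6 against 30.5, 38.9, 35.7, 44.8 and 104 CPM and was not called (1.45 ± 0.43, adjusted p = 0.0843), but was called higher with no filter on low counts (0.000455), by DESeq2's test (0.0345), in limma (0.0031), without library 10 (0.0215) and without library 15 (0.0411). Mki67, the marker of cycling cells, was at 149, 46.5, 177 and 142 against 64.4, 58.7, 91, 172 and 16.1 CPM and was not called (0.68 ± 0.80, adjusted p = 0.717), with the lowest value in resident library 10. Bcl2l11, the proapoptotic gene Bim, was the call among 13 Bcl2 family genes (17.1, 20.9, 48.2 and 45.9 against 0.631 to 9.49 CPM, 3.26 ± 0.73, adjusted p = 0.0184), and was lost without library 6, 7 or 9 (adjusted p = 0.0805, 0.0509 and 0.0564) and with only the 9 libraries fitted (0.0759).

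With edgeR at the settings of the 477 calls, no member was called in the lists of inhibitory and Fc gamma receptors (18 tested), interferon response (18), oxidative stress defence (12), TGF-beta receptors and Smads (22) and adenosine and nucleotide receptors (13). In the same order, 3, 3, 3, 4 and 2 members had an unadjusted p under 0.05, 2, 1, 1, 3 and 1 were called by DESeq2's Wald test and 0, 1, 0, 1 and 2 by limma. Other fits called members of these lists. Bmpr1a, a BMP receptor of the TGF-beta list at 0.168, 0, 0 and 3.06 against 9.39 to 16.6 CPM, was called lower with no filter on low counts (0.00364), by DESeq2's test (0.00159), in limma (0.00111), without libraries 7, 8 and 15 together (0.00693) and without library 15 (0.000427). Leaving out 1 library gave at most 1 call in the lists of inhibitory receptors (without library 14), interferon response (without library 9) and TGF-beta (without library 15), and none in the other 2. The interferon response list had a median log2 fold change of 0.98 with library 15 and 0.48 without it, and summed to 1467 CPM in library 15, 404 to 581 CPM in libraries 11, 13 and 14 and 351 to 391 CPM in resident libraries. The TGF-beta list had a median of -0.30, near the -0.28 of all genes tested. Markers of keratinocytes, fibroblasts, endothelial cells, melanocytes, T cells, B cells and eosinophils were called in neither direction by edgeR with all libraries (1 fibroblast marker, 2 endothelial markers, and 1 each of the B cell and eosinophil markers had an unadjusted p under 0.05; without library 15 the endothelial marker Kdr was called lower, adjusted p = 0.0282), and summed to at most 94.5 CPM in any of the 9 libraries.

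Among the most abundant called genes outside the lists, Eef1a1, a translation elongation factor, was at 5219, 5431, 4264 and 3485 CPM against 2330, 2267, 1858, 2849 and 2932 CPM (0.90 ± 0.16, adjusted p = 0.00348). Lgals1, galectin-1, was at 3524, 3980, 3196 and 3148 against 1597, 1316, 2138, 2143 and 2055 CPM (0.90 ± 0.18, adjusted p = 0.0069). Rgs2, a brake on G protein signalling (ENSMUSG00000026360.9, minus strand of chromosome 1 from 143999338 to 144004161), was at 2459, 3261, 2808 and 2181 against 1057, 1088, 794, 1000 and 1244 CPM (1.36 ± 0.18, adjusted p = 0.00014). Malat1, a nuclear noncoding RNA, was at 746, 652, 743 and 658 against 1568, 1255, 1319, 1186 and 1781 CPM (-1.03 ± 0.18, adjusted p = 0.00331). Neat1, another, was at 1298, 1259, 2145 and 1124 against 3583, 3395, 3313, 3034 and 3028 CPM (-1.17 ± 0.22, adjusted p = 0.00448). These 5 genes were also chosen among those without overlap. Of them Neat1 alone lost its call under an alternative, without libraries 7, 8 and 15 together (adjusted p = 0.0637).

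The non-treated resident libraries give the level of the same genes without MC903, as a description. Gzmb was at 78.3 to 504 CPM there and Ctsg at 348 to 661 CPM, both below all bone marrow libraries. Itga4 was at 9.55 to 20.2 CPM and Cd34 at 7.72 to 27.5 CPM. Mcpt4 was at 13090 to 16000 CPM, Mrgprb1 at 1939 to 2932 CPM, Meis2 at 108 to 150.4 CPM and Ccl7 at 21320 to 34730 CPM. Myc was at 82.1 to 180.1 CPM, above every bone marrow and MC903 resident library, and Fcer1a at 529 to 1114 CPM, below all of them. In other named genes the non-treated range overlapped that of the bone marrow libraries. Tnfaip3 was at 1582 to 2982 CPM, Aldoa at 888.4 to 1221 CPM, Ifngr1 at 51.65 to 105.8 CPM and Hdc at 9546 to 13070 CPM. Dnah7b, at 0.402 to 4.75 CPM, and Ccr1, at 3.36 to 18.96 CPM, did so as well. The genes given in this paragraph are a selection.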

How the data were processed

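RNA was measured in 14 libraries, each from up to 100 sorted mast cells, with SMART-Seq HT cDNA and Nextera XT libraries, per the labels' protocols. The authors deposited 1 table of raw read counts, with 55487 genes and 14 columns; STAR, featureCounts and mm10 are named, without versions or settings, per the submitters' processing notes, so whether strand was used is not given in the sources used here. Gene identifiers and positions match GENCODE M21 (GRCm38) for 55094 genes. Without strand, overlapping genes and near copies can share reads, and no molecular identifiers were counted.

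Genes passing edgeR's filterByExpr (minimum count 10, minimum total 15) were fitted in R 4.3.3 with edgeR 4.0.16: TMM factors, a model with 3 groups over 14 libraries, the quasi-likelihood test and Benjamini-Hochberg adjustment over all 21014 genes tested. The biological coefficient of variation was 1.15, and SE is the log2 fold change over the root of F. Promoter windows came from RefSeq. Alternatives were DESeq2 1.42.0 and limma 3.58.1, other size factors and filters, and fits leaving out libraries. DESeq2 p-values of NA stayed NA.

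Called genes were named when also called without library 15, without overlap, and at a mean of at least 20 CPM with at least 10 counts in each library of the higher group: the 12 largest changes each way and the 6 most abundant. From each of 24 gene lists, up to 4 called members each way and 2 not called were named by abundance, beside a fixed list of mast cell genes; a few others, described with their values, were chosen after those were seen. The comparison, members and lists were chosen with earlier results of these data known. The number of animals is not given, so replicates are libraries.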

Additional observations from a re-analysis of the deposited data

Results flagged for a closer look

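In 282 groups of 4 or 5 libraries, 1 library's gap to its nearest neighbour was compared with the whole range of its group, against Dixon's limit for a group of that size. The limit was passed by 44 values, 25 of them in library 15. Chance passes it in about 1 in 20 groups of unselected genes, but these genes were chosen by their values and the number is not compared with that. Cd163, Ncf4, Scpep1, Ap2a2, Pde4b, Slc9a9 and Adam9 had been chosen for being high in library 15, Il6ra, Il6st, Atf3, Klf4 and Bmpr1a for being called without it only, and Cd74 and H2-Ab1 after their values were seen.

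In library 15 the macrophage and dendritic cell markers summed to 13120 CPM (other bone marrow libraries 80.9 to 354) and the neutrophil markers to 85.3 CPM (others 0.0348 to 0.555). The genes that stood apart there were Cd83 at 509 CPM (others 18.7 to 29), Ccl9 at 619.8 CPM (others 15.6 to 38.6), Ccr1 at 287 CPM (others 5.42 to 45.9), Bex4 at 1.96 CPM (others 0 to 0.0838), Dnah7b at 3.06 CPM (others 0 to 0.469), Ano2 at 1.71 CPM (others 0.139 to 0.213), C3ar1 at 329 CPM (others 7.87 to 41.6), Cd74 at 2696 CPM (others 5.67 to 45.5), H2-Ab1 at 939 CPM (others 13.3 to 27.3), Vdr at 2.31 CPM (others 0 to 0), Il6ra at 9.99 CPM (others 0 to 0.256), Il6st at 31.5 CPM (others 0.168 to 4.1), Atf3 at 712 CPM (others 102 to 163), Klf4 at 51.4 CPM (others 15.9 to 21.3), Bmpr1a at 3.06 CPM (others 0 to 0.168), Cd68 at 817 CPM (others 69.5 to 162), Cd163 at 178 CPM (others 10.5 to 13.1), Ncf4 at 83.2 CPM (others 9.35 to 12.9), Scpep1 at 208 CPM (others 20.8 to 31.5), Ap2a2 at 204 CPM (others 48.9 to 59.98), Pde4b at 90.8 CPM (others 20.9 to 24.8), Slc9a9 at 64.2 CPM (others 0.209 to 10.01) and Adam9 at 175 CPM (others 13.1 to 39.3). All were higher in library 15 than in the other bone marrow libraries. Vdr, the vitamin D receptor, was not called by edgeR with all libraries. It was called lower in bone marrow cells in limma (log2 fold change -5.88, adjusted p = 0.0221) and by edgeR without library 15 (-9.22, 0.0449).

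In bone marrow library 11 the values that stood apart, all high, were Bmp7 at 80.7 CPM (others 19.4 to 28.5), Cadm1 at 19.9 CPM (others 0.256 to 2.5), Il4 at 305 CPM (others 176 to 180.5) and Mcpt8 at 979 CPM (others 46.2 to 206). In library 13 they were Pcp4l1 at 2.57 CPM (others 0 to 0.151) and Mcpt9 at 32 CPM (others 6.1 to 8.92). In library 14 it was Pik3cd at 274 CPM (others 136 to 144). In resident library 6 Gzmb at 592 CPM (others 69.8 to 208) was high. In library 8 Plac8 at 1.72 CPM (others 0 to 0.458), Bmp7 at 2.68 CPM (others 0.0842 to 0.622) and Mcpt9 at 36.6 CPM (others 11.1 to 16.3) were high. In library 10 Amotl1 at 50.04 CPM (others 17.9 to 25.6), Mcpt2 at 247 CPM (others 7.77 to 36.3), Mcm2 at 104 CPM (others 30.5 to 44.8) and Mcpt8 at 57.1 CPM (others 3.12 to 18.7) were high, with a mitochondrial share of 3.96% (others 2.39% to 2.54%). Resident library 7 was low for Mcpt1 at 0.801 CPM (others 1.59 to 1.89) and Fcer1g at 1363 CPM (others 2110 to 2277), and its 20 highest genes took 22.8% of counts (others 26.3% to 27.6%).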

How the results depend on the processing

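Over the 17 alternatives, 36 of the 87 called genes examined stayed called in every one that gave a value, and none of the 87 changed direction; of their 1476 values 1142 kept the call and 334 lost it. The 477 calls became 748 with no filter on low counts, 1710 with DESeq2's Wald test, 2017 with limma and 315 with only the 9 libraries fitted, of which 437, 471, 442 and 278 were among the 477. The calls higher in bone marrow cells (277) became 167 with DESeq2 size factors, 178 with TMM factors of genes at 10 CPM or more, 464 with no filter, 444 with DESeq2's test, 672 with limma, 176 with the 9 libraries and 126 without libraries 7, 8 and 15. The calls lower (200) became 1266 with DESeq2's test, 1345 with limma and 376 without library 15. Leaving out 1 library gave 302 to 704 calls, 135 to 328 higher and 164 to 376 lower. Without library 15, the 704 calls became 4720 with DESeq2's test and 4264 with limma. Those higher (328) became 216 with DESeq2 size factors, 212 with the TMM factors, 537 with DESeq2's test and 907 with limma. Those lower (376 of the 704) became 4183 with DESeq2's test and 3357 with limma. Leaving out a further library gave 461 to 671 calls, 200 to 316 higher and 247 to 355 lower. The cause of these shifts was not tested. Of 39 genes examined that were not called, 10 kept that side and direction under every alternative and 22 were called under at least 1 (68 of 660 values). Among them 14 were called without library 15, 15 in limma, 10 with no filter and 9 by DESeq2's test. Some, such as Il6ra, Il6st, Atf3, Klf4 and Bmpr1a, were examined because they were called without library 15 only. The 14, and with it the 22, thus follow in part from the choice of genes. Those that changed sign under an alternative were Mcpt9, Itgae, Il4, Atf3, Fcer1g, Kit, Myb and Ndst2. The log2 fold change of Mcpt9 turned to 0.0521 without libraries 7, 8 and 15. Leaving out 1 library, that of Itgae ran from -0.158 (library 13) to 1.94, Il4 from -0.3747 to 0.0512 (library 8), and Atf3 from -1.25 (library 15) to 0.136 (library 13). That of Fcer1g ran from -0.196 to 0.00982 and was 0.0212 with no filter and 0.0384 in limma. That of Kit ran from -0.248 to 0.0563 and was 0.0654 in limma. That of Myb ran from -0.493 to 0.0398 (library 15). That of Ndst2 ran from -0.227 (library 13) to 0.244, and was -0.137 with DESeq2 size factors or DESeq2's test, -0.149 with the TMM factors of genes at 10 CPM or more, -0.157 with the filter at 10 CPM and -0.0969 with only the 9 libraries. The mitochondrial share, bone marrow minus resident, ran from -0.309 (library 11) to 0.443 percentage points. No paired analysis was possible because the groups share no library number and the labels name no animal. With pools of cells, a biological coefficient of variation of 1.15 and 4 against 5 libraries, differences of low genes could go undetected at this depth.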
